A study of Homo sapiens with 16 samples.

Results

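The AP-1 transcription factor family was described here by 10 genes, FOS, FOSB, FOSL1, FOSL2, JUN, JUNB, JUND, ATF3, BATF and BATF3. They were found by symbol among the 34618 Ensembl gene IDs of the deposited counts, and each symbol matched 1 ID. Polyadenylated RNA had been sequenced in 16 libraries of the human acute myeloid leukaemia lines U937, a promonocytic line, and KG1A, an immature CD34-positive line. There were 4 groups of 4 libraries: U937 with NEL, U937 with DMSO, KG1A with NEL and KG1A with DMSO. NEL was given at 10 µM and DMSO was its vehicle. The labels give no treatment time, and all 4 groups had RPMI medium containing dialyzed serum. NEL is read here as nelarabine, a nucleoside analogue drug, on general knowledge of the study, as the labels do not spell it out. Each line is a single established line, so the 4 libraries of a group are not 4 donors. Nothing in the labels tells whether they were separate cultures, and the p-values therefore reflect the spread among these libraries, possibly a technical one.

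AP-1 proteins are basic leucine zipper factors that bind DNA as dimers. JUN proteins pair with each other or with FOS proteins, whereas FOS proteins need a partner, usually a JUN protein. ATF3 and the short BATF proteins join the same network, and BATF proteins lack the activation domains of FOS. FOS, FOSB, JUN and JUNB are known as early response genes that growth factors and stress induce within minutes, and in myeloid cells AP-1 takes part in the maturation of monocytes and macrophages.

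Total counts ran from 10641567 to 11777684 per library. U937 was marked by CD4, at a mean of 271 CPM with NEL and 191 CPM with DMSO, and by CD33 and LYZ, although CD68 and MPO, which were also chosen to mark it, stayed below 1 CPM. KG1A was marked by CD34, at 974 CPM with NEL and 889 CPM with DMSO, and by CD7, at 56.8 and 58.7 CPM with NEL and with DMSO and no count in U937. SPN, also chosen to mark KG1A, did not set it apart, with 459 and 534 CPM in KG1A with NEL and with DMSO and 404 and 358 CPM in U937 with NEL and with DMSO. CPM are counts scaled to a common library total, with TMM factors over all 16 libraries. The odd-numbered and even-numbered libraries of each group stood apart as sets in all 4 groups, and libraries with the same parity deviated together from their group means. The labels name no batch, so the members' log2 fold changes within each set are given beside the pooled ones. Shares, markers and genes outside the family are given pooled only.

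Promoter sequences are shown for 4 members, because JUN and FOSL2 had the largest NEL effects upward and because JUN, ATF3 and JUND carried TGACATCA or TGACGTCA. The RefSeq promoter table used here, on GRCh38.p14, gave 9 windows for 8 of the 10 members, all but FOSL1 and BATF3. Each run holds the 250 bases before the annotated start, 5′ to 3′ on the gene's strand, with TGACATCA or TGACGTCA in capitals. The JUN window is chr1:58784048-58784297 on the minus strand, the upstream ATF3 window chr1:212565157-212565406 on the plus strand, the JUND window chr19:18281623-18281872 on the minus strand and the FOSL2 window chr2:28392608-28392857 on the plus strand.
JUN: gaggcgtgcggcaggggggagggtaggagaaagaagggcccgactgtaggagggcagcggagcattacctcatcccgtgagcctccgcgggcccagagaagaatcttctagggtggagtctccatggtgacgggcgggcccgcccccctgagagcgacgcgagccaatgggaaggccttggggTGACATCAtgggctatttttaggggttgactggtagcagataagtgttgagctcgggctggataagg
ATF3: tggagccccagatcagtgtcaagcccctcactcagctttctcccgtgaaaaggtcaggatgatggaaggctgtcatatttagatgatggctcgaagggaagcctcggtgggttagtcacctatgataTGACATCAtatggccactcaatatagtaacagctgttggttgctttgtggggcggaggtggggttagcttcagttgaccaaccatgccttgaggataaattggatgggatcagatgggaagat
JUND: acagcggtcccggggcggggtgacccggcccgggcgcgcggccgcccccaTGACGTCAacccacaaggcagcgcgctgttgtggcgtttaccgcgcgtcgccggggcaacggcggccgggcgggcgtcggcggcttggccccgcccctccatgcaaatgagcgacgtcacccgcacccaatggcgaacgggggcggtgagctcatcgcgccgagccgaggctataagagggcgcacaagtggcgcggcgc
FOSL2: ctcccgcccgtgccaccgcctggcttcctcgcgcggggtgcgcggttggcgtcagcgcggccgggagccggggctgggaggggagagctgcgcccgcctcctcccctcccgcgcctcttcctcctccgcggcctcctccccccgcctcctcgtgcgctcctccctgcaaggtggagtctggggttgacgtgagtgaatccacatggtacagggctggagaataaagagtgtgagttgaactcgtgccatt
Both strands were searched for the AP-1 element TGANTCA, the cyclic AMP response element TGACGTCA, the variant TGACATCA, the CArG box, which serum response factor binds, and the general promoter elements CCAAT and GGGCGG. TGACATCA stood 67 to 60 bases before the start of JUN and 123 to 116 bases before the upstream start of ATF3, and 2.37% of 35116 promoter windows of this length held it. TGACGTCA stood 200 to 193 bases before the start of JUND, against 1.65% of all windows. TGANTCA, in 6.57% of all windows, and the CArG box, in 1.16%, had no match in the 9 windows, and the FOSL2 window held none of these first 4 elements. CCAAT, in 32.0% of all windows, was found for JUN, JUNB, JUND and ATF3, and GGGCGG, in 42.6%, for all 8 members but JUNB. Matches of different elements did not overlap each other. A match describes letters only, and none says only that these letters are not in this window.

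The make-up of the family per exon length differed between lines and, in both lines, with NEL. Levels of different genes are compared here in RPKM, which the authors scaled by exon length, and shares are given without a test. The 10 genes summed to 149.8 ± 1.69 RPKM in U937 with NEL and 167.6 ± 6.37 RPKM with DMSO, and to 198.1 ± 5.99 RPKM in KG1A with NEL and 171 ± 1.3 RPKM with DMSO (SD, n = 4 each). JUN genes held 54.1% of this sum in U937 with NEL, 57.9% in U937 with DMSO, 53.5% in KG1A with NEL and 54.6% in KG1A with DMSO. FOS genes held 20.9% in U937 with NEL, against 11.9% with DMSO, and 19.7% in KG1A with NEL, against 21.2% with DMSO. In KG1A JUNB held 12.7% with NEL, against 9.79% with DMSO, with no overlap between libraries, while the shares of JUND and BATF overlapped.

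**Figure D1:**
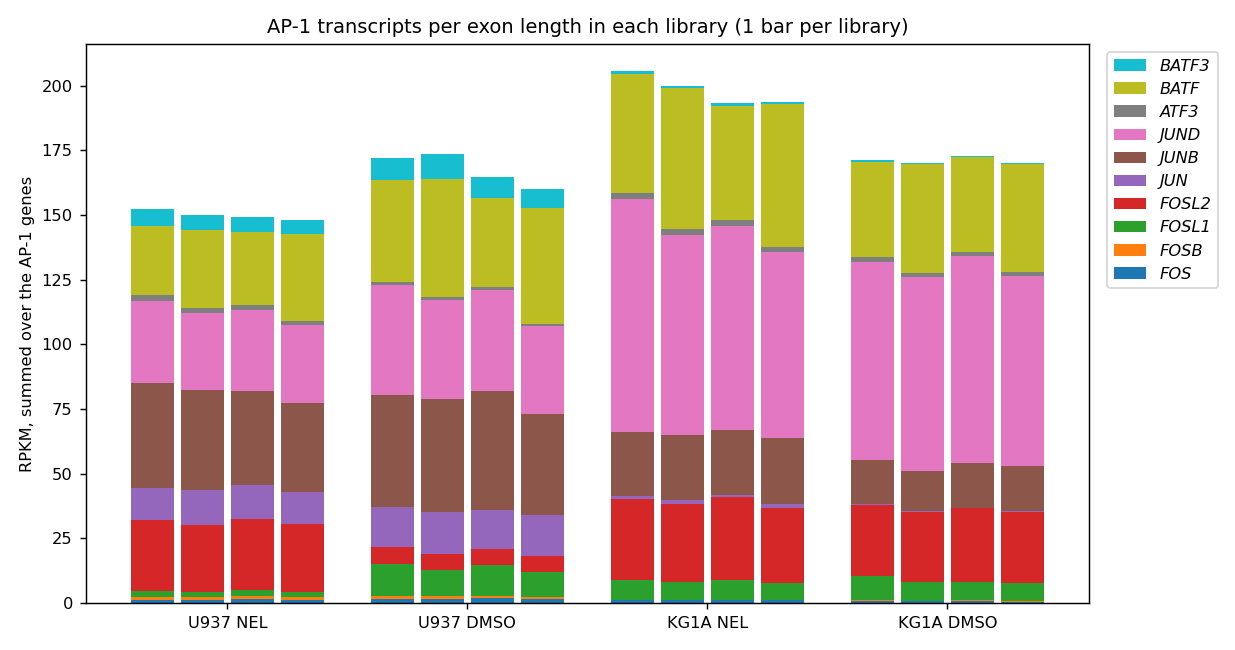
Each bar is 1 library and stacks the deposited RPKM of the 10 AP-1 genes, with the 4 libraries of a group side by side. FOSL2 takes 17.8% of the bar on average in U937 with NEL and 3.78% with DMSO, and JUND takes 40.1% and 44.6% in KG1A with NEL and with DMSO.

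Per exon length, which FOS gene led depended on line and treatment. FOSL2 made up 85.5 ± 0.837% of the RPKM of the 4 FOS genes in U937 with NEL, against 31.9 ± 2.01% with DMSO (SD, n = 4). FOSL1 made up 7.3 ± 0.715% with NEL, against 55.7 ± 2.29% with DMSO. So per exon length FOSL1 led the FOS genes in U937 with DMSO and FOSL2 led them with NEL. Without scaling by exon length FOSL2 led there with DMSO too, at 46.96 CPM against 21.75 CPM for FOSL1. In KG1A FOSL2 led in both groups, with 78.4 ± 0.732% with NEL and 76.5 ± 2.4% with DMSO. FOS and FOSB, the classical early response members, were minor FOS transcripts in all 4 groups. FOS took no more than 8.21% and FOSB no more than 4.22% of the FOS genes on average. FOSL1 was minor too in U937 with NEL. Without scaling by exon length its mean there was 4.195 CPM, against 4.279 CPM for FOS and 4.791 CPM for FOSB, with overlap between libraries. Among the JUN genes, JUND made up 75 ± 1.94% in KG1A with NEL and 81.7 ± 0.969% with DMSO. In U937 JUNB was first, with 46.3 ± 1.62% with NEL and 44.2 ± 1.22% with DMSO, and JUN itself took 15.9 ± 0.785% with NEL and 16.1 ± 1.15% with DMSO. In KG1A JUN was a trace among JUN genes, at 1.11 ± 0.188% with NEL and 0.326 ± 0.126% with DMSO.

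Ordered by mean RPKM, the family in U937 with NEL ran JUNB (37.5), JUND (30.7), BATF (29.7), FOSL2 (26.7), JUN (12.9), BATF3 (5.9), FOSL1 (2.29), ATF3 (1.88), FOS (1.36) and FOSB (0.888). In that order JUND and BATF, BATF and FOSL2, FOSL1 and ATF3, and ATF3 and FOS overlapped between libraries. In U937 with DMSO the order was JUNB (42.9), BATF (41.1), JUND (38.5), JUN (15.6), FOSL1 (11.1), BATF3 (8.47), FOSL2 (6.33), FOS (1.63), ATF3 (1.06) and FOSB (0.839), where the first 3 overlapped and FOSL1 and BATF3 touched. In KG1A with NEL it was JUND (79.6), BATF (50.0), FOSL2 (30.6), JUNB (25.2), FOSL1 (7.25), ATF3 (2.23), JUN (1.17), FOS (1.03), BATF3 (0.883) and FOSB (0.171), and JUN, FOS and BATF3 overlapped. In KG1A with DMSO it was JUND (76.3), BATF (39.4), FOSL2 (27.7), JUNB (16.7), FOSL1 (7.70), ATF3 (1.54), FOS (0.754), BATF3 (0.412), JUN (0.302) and FOSB (0.103), and neighbours from FOS downward overlapped.

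In U937, NEL went with higher FOSL2 and ATF3 and with lower FOSL1, BATF3, BATF, JUND, JUN, JUNB and FOS. FOSL2 was 3.97-fold higher and FOSL1 5.17-fold lower, while the other changes were under 1.7-fold. Of the 10 members, all above the filter on low counts, 2 were called higher and 7 lower at an adjusted p under 0.05, and FOSB was not called. Over all 14390 genes tested in U937, 34.6% were called higher and 34.7% lower, and 69.3% in either direction, so most of the table was called, as most members were. NEL libraries lay clear of DMSO libraries in 8 members, against 62.4% of all genes tested. The median log2 fold change was -0.362 over the members and -0.004 over all genes. All tests were by edgeR's quasi-likelihood method, with p-values adjusted over every gene tested (Benjamini-Hochberg). Less RNA per cell and fewer cells that express a gene cannot be told apart in these bulk samples.

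FOSL2 encodes FRA-2, a FOS-related factor without the strong activation domain of FOS (ENSG00000075426, GRCh37 chromosome 2, 28615315 to 28640179). It had 190.9, 181.2, 190.6 and 180.7 CPM in the U937 NEL libraries, against 48.5, 44.6, 47.5 and 47.3 CPM in the DMSO libraries. Every NEL library was thus far above every DMSO library. Its log2 fold change was 1.99 ± 0.04 (SE, n = 4 per group; edgeR adjusted p = 4.17e-13), and either library set alone gave 1.99. FOSL1 encodes FRA-1, its closest relative (ENSG00000175592, chromosome 11, 65659520 to 65668044). It had 4.68, 3.75, 4.70 and 3.65 CPM with NEL, against 24.2, 20.1, 23.7 and 19.1 CPM with DMSO. In both groups libraries 1 and 3 were the higher ones, and the groups were well apart. FOSL1 gave a log2 fold change of -2.37 ± 0.12 (edgeR adjusted p = 9.15e-10). Within the library sets it was -2.35 (odd) and -2.39 (even). Thus FOSL2 and FOSL1 moved in opposite directions in the same libraries.

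FOS (ENSG00000170345, chromosome 14, 75745477 to 75748933) had 3.81, 4.00, 5.23 and 4.08 CPM in the U937 NEL libraries, against 5.46, 5.67, 5.81 and 4.96 CPM with DMSO. NEL library 3 lay above DMSO library 4, so the groups overlapped. FOS gave a log2 fold change of -0.35 ± 0.13 (edgeR adjusted p = 0.0311). The odd set gave -0.32 and the even set -0.39, the order kept below. That call was lost without U937 NEL library 1, 2 or 4 or DMSO library 2 or 3, at edgeR adjusted p from 0.0623 to 0.085, and with DESeq2 (adjusted p = 0.0809). It was also lost with upper quartile factors (edgeR adjusted p = 0.0665), in limma fits of log2(RPKM + 0.5) and log2(RPKM + 0.1) (adjusted p = 0.0644 and 0.0691), and in the odd and the even set alone (edgeR adjusted p = 0.16 and 0.095). FOSB (ENSG00000125740, chromosome 19, 45971253 to 45978437) had 5.28, 4.43, 4.44 and 5.01 CPM with NEL, against 4.92, 4.87, 5.004 and 4.52 CPM with DMSO. The groups lay within each other and the gene was not called (log2 fold change -0.01 ± 0.12; by set -0.03 and 0.02; edgeR adjusted p = 0.962). FOSB lies inside ERCC1 on the opposite strand, which had 97.3 to 180.4 CPM, and since no source used here tells how strand was treated in counting, reads of FOSB are uncertain.

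The JUN genes, whose proteins can dimerise without FOS, were all called lower in U937. JUN (ENSG00000177606, chromosome 1, 59246465 to 59249785) had 40.5, 43.2, 42.4 and 39.8 CPM with NEL, against 53.2, 55.4, 52.6 and 54.1 CPM with DMSO. Its log2 fold change was -0.37 ± 0.05 (edgeR adjusted p = 1.1e-05; by set -0.35 and -0.39). JUNB (ENSG00000171223, chromosome 19, 12902310 to 12904124), often a weaker activator than JUN, had 72.2, 68.3, 63.8 and 60.7 CPM with NEL, against 81.3, 81.4, 86.9 and 73.9 CPM with DMSO. NEL library 1 and DMSO library 4 were the nearest, and the groups did not overlap. The log2 fold change of JUNB was -0.28 ± 0.06 (edgeR adjusted p = 0.00105; by set -0.31 and -0.26). HOOK2, at 28.8 to 44.1 CPM, spans JUNB on the other strand, so JUNB reads are uncertain in the same way. JUND (ENSG00000130522, chromosome 19, 18390563 to 18392432), the JUN gene usually present in resting cells, had 58.1, 53.7, 57.4 and 53.9 CPM with NEL, against 82.1, 73.8, 76.6 and 66.4 CPM with DMSO. Its change on the log2 scale was -0.42 ± 0.06 (edgeR adjusted p = 3.68e-05; by set -0.46 and -0.37), with no overlap of the groups.

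ATF3, a stress-induced repressor or activator, was the other member that rose in U937, and both BATF genes fell. ATF3 (ENSG00000162772, chromosome 1, 212738676 to 212794119) had 8.49, 7.41, 7.05 and 6.29 CPM with NEL, against 4.12, 4.96, 4.47 and 4.08 CPM with DMSO. Every NEL library exceeded every DMSO library, and the log2 fold change was 0.73 ± 0.13 (edgeR adjusted p = 1.73e-04; by set 0.85 and 0.61). BATF (ENSG00000156127, chromosome 14, 75988768 to 76013358), a factor of lymphocytes and dendritic cells that pairs with JUN proteins, had 25.6, 28.9, 26.8 and 31.9 CPM with NEL, against 39.9, 46.2, 35.0 and 45.8 CPM with DMSO. In both groups the even-numbered libraries were higher than the odd-numbered ones. The log2 fold change of BATF was -0.56 ± 0.09 (edgeR adjusted p = 1.03e-04; by set -0.52 and -0.59). BATF3 (ENSG00000123685, chromosome 1, 212859760 to 212873327), required for a class of cross-presenting dendritic cells in mice, had 17.4, 15.2, 15.1 and 14.6 CPM with NEL, against 24.1, 27.0, 23.2 and 21.0 CPM with DMSO. Its groups did not overlap, and the log2 fold change was -0.61 ± 0.09 (edgeR adjusted p = 3.44e-05; by set -0.54 and -0.68).

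**Figure D2:**
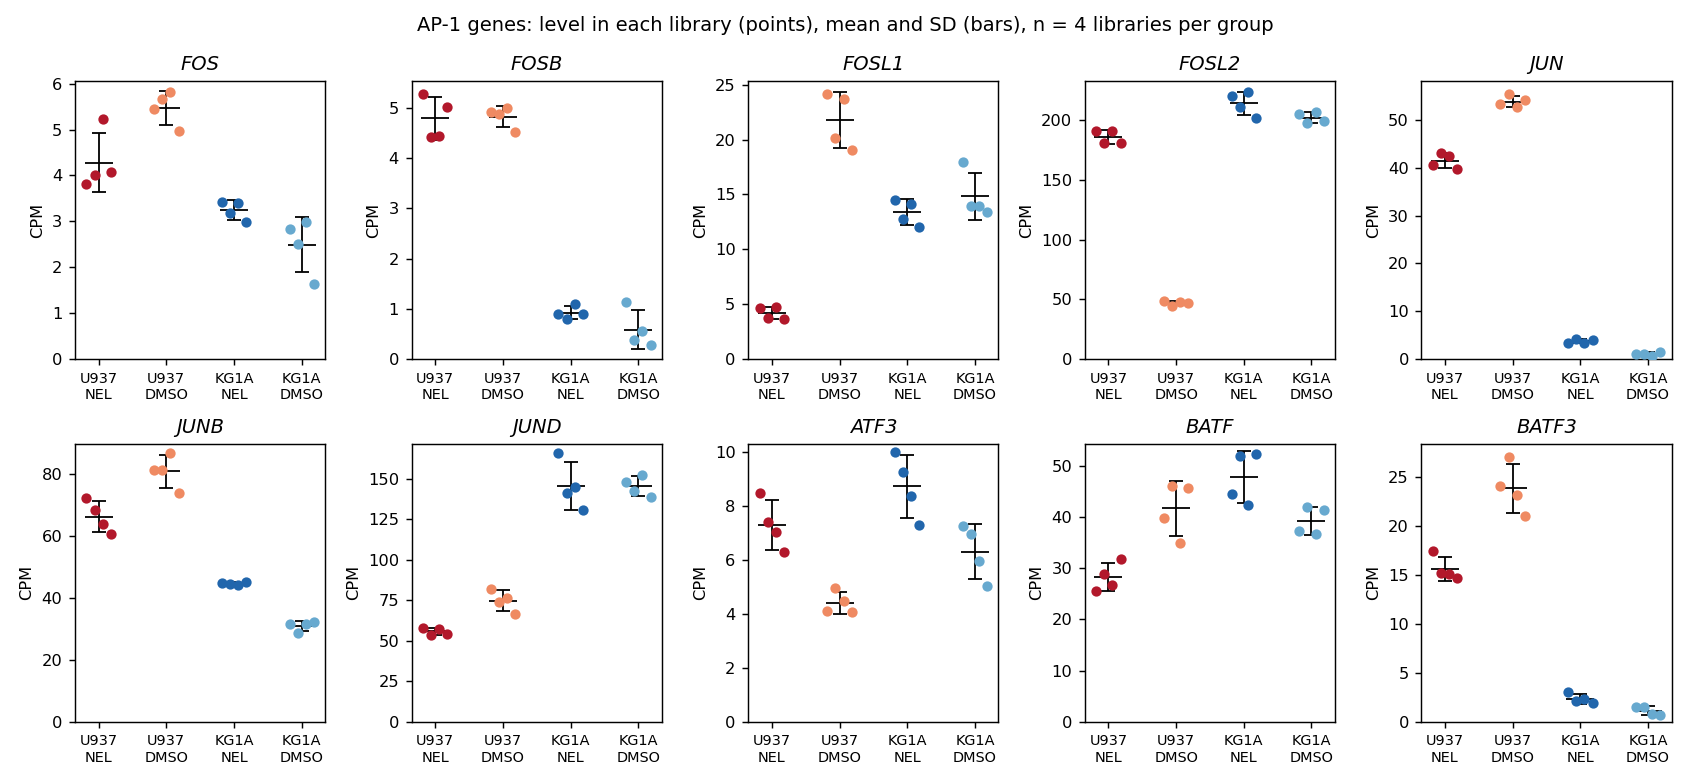
Each panel plots 1 AP-1 gene in CPM from 0, with 1 point per library in order of its number and the mean and SD of 4 libraries per group. FOSL2 stands at 180.7 to 190.9 CPM in U937 with NEL against 44.6 to 48.5 CPM with DMSO, and JUN at 3.41 to 4.24 CPM in KG1A with NEL against 0.558 to 1.46 CPM with DMSO.

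Markers of other cell types differed with NEL in U937 too. Of the B lymphoid markers, CD79A averaged 6.59 CPM with NEL and 1.54 CPM with DMSO, PAX5 averaged 22.4 CPM with NEL and 19.4 CPM with DMSO, and MS4A1 had no more than 1 count in any library. The 3 fibroblast markers summed to 5.28 to 7.05 CPM with NEL and 1.15 to 1.88 CPM with DMSO, nearly all of it COL1A1, and the 4 erythroid markers had no count in any library. In KG1A CD79A averaged 0.701 CPM with NEL and 1.30 CPM with DMSO, and PAX5 9.76 CPM with NEL and 5.99 CPM with DMSO. The 4 T lymphoid markers summed to 139 to 150 CPM in KG1A with NEL and 138 to 157 CPM with DMSO, with CD3D and CD3E making up the sum. In U937 that T lymphoid sum stayed below 1 CPM. Mitochondrially encoded genes took 5.89 to 7.29% of counts in U937 with NEL, 7.09 to 9.33% in U937 with DMSO, 7.34 to 9.94% in KG1A with NEL and 8.24 to 10.4% in KG1A with DMSO. The part of these genes in the results was not tested.

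In KG1A, NEL went with higher JUN, BATF3, JUNB, ATF3 and BATF, and no member was called lower. JUN was 3.66-fold and BATF3 2.04-fold higher, both from low levels, and JUNB was 1.44-fold higher. FOSL2, FOSL1, JUND and FOS were not called, and FOSB, with 9 to 12 counts with NEL and 3 to 12 with DMSO, was below the filter on low counts. So 5 of the 9 members that passed were called higher, against 23.6% of all 14250 genes tested in each direction and 47.2% in either. The count of members called lower was 0 by edgeR, also at an unadjusted p under 0.05, and 0 by DESeq2, which made the same 5 calls. The groups did not overlap in 6 members, against 42.2% of all genes tested. JUN and BATF3 reached the filter's cutoff in all 4 NEL libraries but in only 3 and 2 of the DMSO libraries, so they passed through the group where they are high, and both were also called with no filter.

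JUN had 3.43, 4.24, 3.41 and 4.06 CPM in the KG1A NEL libraries, from 37 to 48 counts, against 1.04, 1.02, 0.558 and 1.46 CPM with DMSO, from 6 to 16 counts. All NEL libraries lay above all DMSO libraries. JUN thus changed by 1.87 ± 0.23 on the log2 scale (SE, n = 4 per group; edgeR adjusted p = 1.14e-05; by set 2.08 and 1.73). JUNB had 44.9, 44.6, 44.3 and 45.0 CPM with NEL, against 31.5, 28.7, 31.6 and 32.1 CPM with DMSO. The NEL libraries of JUNB were almost equal and clear of the DMSO ones. Its log2 fold change was 0.52 ± 0.05 (edgeR adjusted p = 2.14e-06; by set 0.496 and 0.556). JUND, the most abundant member in KG1A per exon length, had 166, 141, 145 and 130.5 CPM with NEL, against 148, 142.5, 152.5 and 139 CPM with DMSO. NEL library 1 was the highest and NEL library 4 the lowest of the 8, and the gene was not called (log2 fold change 0.00 ± 0.06; by set 0.05 and -0.05; edgeR adjusted p = 0.959).

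Among the FOS genes of KG1A, FOSL2 had 220.2, 211, 223.5 and 202.2 CPM with NEL, against 204.8, 198, 207 and 199 CPM with DMSO. The groups overlapped, and the log2 fold change of 0.08 ± 0.04 was not called (edgeR adjusted p = 0.127; by set 0.11 and 0.05). With the library number as a block it was called, at an edgeR adjusted p of 0.00686 for a change of 0.08, and without NEL library 4 it was called at 0.0418. The odd-numbered libraries alone also gave a call (edgeR adjusted p = 0.0218), as did libraries 1 and 2, and 3 and 4, summed (edgeR adjusted p = 0.0286). So did limma fits of log2(RPKM + 0.5) and log2(RPKM + 0.1) (adjusted p = 0.0119 and 0.0122). FOSL1 had 14.5, 12.8, 14.2 and 12 CPM with NEL, against 17.97, 13.9, 13.9 and 13.4 CPM with DMSO, where DMSO library 1 stood apart. It was not called (log2 fold change -0.15 ± 0.11; by set -0.15 and -0.14; edgeR adjusted p = 0.253). FOS had 3.43, 3.18, 3.41 and 2.98 CPM with NEL, against 2.84, 2.50, 2.98 and 1.65 CPM with DMSO, from 33 to 38 counts and 18 to 32 counts. The lowest NEL and the highest DMSO library were nearly equal, and the log2 fold change of 0.38 ± 0.19 was not called (edgeR adjusted p = 0.112), with 0.23 and 0.56 by set, neither called.

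ATF3 rose in KG1A as in U937. It had 10.0, 9.26, 8.38 and 7.31 CPM with NEL, against 7.28, 6.95, 5.95 and 5.03 CPM with DMSO, and NEL library 4 only just exceeded DMSO library 1. Its log2 fold change was 0.47 ± 0.14 (edgeR adjusted p = 0.0116), the same in either set. BATF had 44.6, 52.1, 42.4 and 52.4 CPM with NEL, against 37.3, 42.0, 36.6 and 41.4 CPM with DMSO. The sets showed again as higher even-numbered libraries, and the closest libraries of the 2 treatments were NEL library 3 and DMSO library 2. BATF gave a log2 fold change of 0.28 ± 0.08 (edgeR adjusted p = 0.0075; by set 0.23 and 0.32). BATF3 had 3.07, 2.12, 2.30 and 1.90 CPM with NEL, from 21 to 34 counts, against 1.51, 1.48, 0.837 and 0.731 CPM with DMSO, from 8 to 16 counts. The NEL libraries stayed above the DMSO ones, with a log2 fold change of 1.03 ± 0.26 (edgeR adjusted p = 0.00511; by set 1.19 and 0.85). BATF3 missed the threshold when even-numbered libraries stood alone (edgeR adjusted p = 0.0552).

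**Figure D3:**
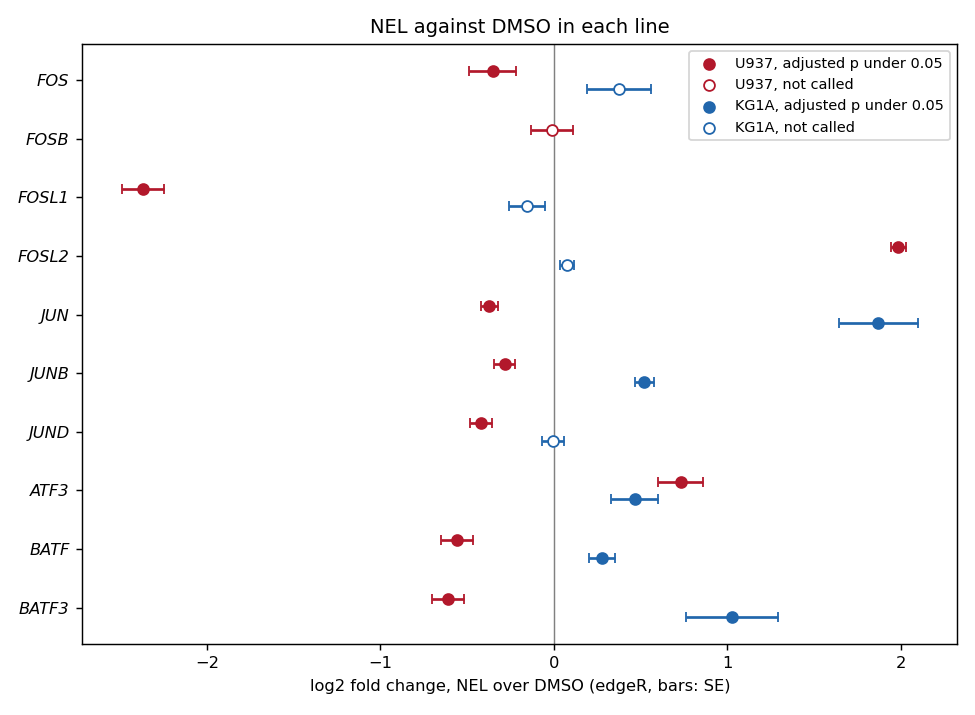
Points give the log2 fold change of NEL over DMSO for each AP-1 gene in U937 and in KG1A, bars the SE, and filled points an edgeR adjusted p under 0.05. FOSB has no KG1A point because it was below the filter. JUN stands at -0.37 in U937 and 1.87 in KG1A, and FOSL2 at 1.99 in U937 and 0.08 in KG1A.

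Whether the lines respond alike was tested by the interaction term over all 16 libraries, in which 8 of 10 members differed. FOSL2 alone had the higher NEL effect in U937, and FOS, FOSL1, JUN, JUNB, JUND, BATF and BATF3 the lower one. Over all 16117 genes tested, 21.1% were called higher and 26.3% lower in this term, and 47.4% in either direction. The difference of log2 fold changes, U937 minus KG1A, was 1.90 ± 0.06 for FOSL2 (edgeR adjusted p = 3.66e-16) and -2.23 ± 0.17 for FOSL1 (edgeR adjusted p = 5.9e-10). For JUN it was -2.25 ± 0.19 (edgeR adjusted p = 3.55e-09), since JUN fell in U937 and rose in KG1A. JUNB, BATF and BATF3 did the same, with differences of -0.82 ± 0.08, -0.84 ± 0.13 and -1.65 ± 0.27 (edgeR adjusted p = 4.89e-08, 1.06e-05 and 2.91e-05). By set the differences were 1.88 and 1.93 for FOSL2, -2.20 and -2.25 for FOSL1, -2.44 and -2.12 for JUN, and -0.81 and -0.82 for JUNB. They were -0.75 and -0.92 for BATF, and -1.73 and -1.54 for BATF3. JUND differed by -0.42 ± 0.09 (edgeR adjusted p = 6.93e-04, -0.51 and -0.33 by set). FOS differed by -0.74 ± 0.22 (edgeR adjusted p = 0.00865). Odd-numbered libraries alone gave -0.55 for FOS, not called (edgeR adjusted p = 0.179), and even-numbered ones -0.96. ATF3, which rose in both lines, had a difference of 0.26 ± 0.19 that was not called (edgeR adjusted p = 0.302, 0.38 and 0.13 by set). FOSB was not called either, at -0.67 ± 0.36 (edgeR adjusted p = 0.138, -0.28 and -1.35 by set), but it was without KG1A DMSO library 1 (-1.20, edgeR adjusted p = 0.0186), and its KG1A counts are few.

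Without NEL the family differed between the lines, U937 having more JUN, BATF3, FOSB, JUNB, FOS and FOSL1 and less FOSL2, JUND and ATF3 than KG1A. BATF was not called. Thus 6 of the 10 members were higher and 3 lower in U937 with DMSO. Over all 15181 genes tested between the lines, 43% were higher, 43.4% lower and 86.4% called in either direction, so the number of members called reads no differently from the table as a whole. The groups did not overlap in 9 members, against 81.6% of all genes tested. JUN, BATF3 and FOSB passed the filter only through U937, where they are high.

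The DMSO libraries enter this comparison and those of NEL, so their values are those given above. JUN, at 53.9 ± 1.2 CPM in U937 and 1.02 ± 0.369 CPM in KG1A (SD, n = 4 each), was 49.2-fold higher in U937 (5.62 ± 0.12 on the log2 scale, edgeR adjusted p = 9.71e-17, 5.96 and 5.36 by set). BATF3, at 23.8 ± 2.5 CPM in U937 and 1.14 ± 0.415 CPM in KG1A, was 19.6-fold higher (4.29 ± 0.17, edgeR adjusted p = 2.38e-13, 4.24 and 4.34 by set). These were the widest gaps of the family between the lines. FOSB, at 4.83 ± 0.215 CPM in U937 and 0.585 ± 0.385 CPM in KG1A, was 7.72-fold higher (2.95 ± 0.26, edgeR adjusted p = 1.47e-08, 2.46 and 3.73 by set). FOSL2, at 47.0 ± 1.67 CPM in U937 and 202 ± 4.31 CPM in KG1A, was 4.56-fold lower in U937 (-2.19 ± 0.04, edgeR adjusted p = 3.52e-17, -2.18 and -2.20 by set). With NEL, FOSL2 stood at 185.8 ± 5.65 CPM in U937, so its level there came near to that of KG1A. JUNB gave a log2 fold change of 1.30 ± 0.06, FOS 1.05 ± 0.17 and FOSL1 0.47 ± 0.11, and JUND gave -1.04 ± 0.06 and ATF3 -0.60 ± 0.14, all with edgeR adjusted p of 0.00109 or less. In the order just given the values by set were 1.34 and 1.27, 0.87 and 1.27, 0.51 and 0.43, -0.999 and -1.09, and -0.70 and -0.49. BATF, at 41.7 ± 5.31 CPM in U937 and 39.3 ± 2.76 CPM in KG1A, stood at 0.00 ± 0.08 on the log2 scale (edgeR adjusted p = 0.985, -0.06 and 0.05 by set).

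**Figure D4:**
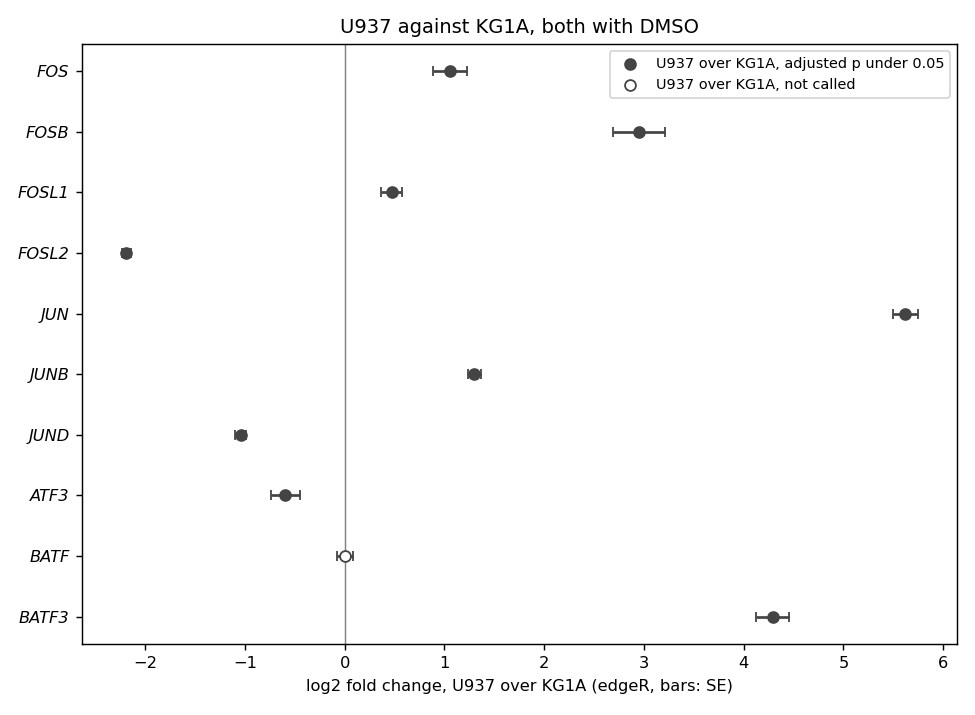
Points give the log2 fold change of U937 over KG1A, both with DMSO, for each AP-1 gene, bars the SE, and filled points an edgeR adjusted p under 0.05. JUN lies farthest to the right at 5.62 and FOSL2 farthest to the left at -2.19.

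Other factors that pair with AP-1 proteins or share its zipper changed in both directions. The counts of this and the following gene groups stand beside 34.6% of all genes called higher and 34.7% lower in U937, and 23.6% each way in KG1A. Of 16 such genes tested in U937, 7 rose, 4 fell and 5 were not called, with a median log2 fold change of 0.005 against -0.004 over all genes. BATF2 and CREB5, with 39 and 53 counts over the DMSO group, passed the filter only through the NEL group, where they are high. Both are among the risers. NFIL3, a repressor of the same protein class, rose to 49.5 ± 1.17 CPM with NEL, against 16.6 ± 1.96 CPM with DMSO (log2 fold change 1.58 ± 0.07, edgeR adjusted p = 3.64e-10), and ATF7 rose by 0.72 ± 0.06 (edgeR adjusted p = 2.26e-07). MAFK, a small MAF protein, fell to 11.8 ± 0.858 CPM with NEL, against 33.4 ± 2.87 CPM with DMSO (-1.49 ± 0.08, edgeR adjusted p = 2.35e-09), and CREM fell by 1.24 on the log2 scale (SE 0.08, edgeR adjusted p = 9.99e-09). In KG1A 3 of 12 rose, 3 fell and 6 were not called (median 0.009). JDP2, a JUN dimerisation partner that represses AP-1, rose to 5.07 ± 0.206 CPM with NEL, against 1.55 ± 0.458 CPM with DMSO (1.69 ± 0.19, edgeR adjusted p = 4.31e-06), and NFIL3 rose by 0.58 ± 0.08 (edgeR adjusted p = 1.94e-05). DBP was at -0.33 ± 0.06 and CREB1 at -0.28 ± 0.06 there (edgeR adjusted p = 3.83e-04 and 6.95e-04).

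Genes of the serum response factor complex and its coactivators, which act on FOS transcription, changed in both directions in U937 and mostly fell in KG1A. In U937 4 of 9 fell, 2 rose and 3 were not called (median log2 fold change -0.037), against 34.7% lower and 34.6% higher over all genes tested. SRF fell to 102 ± 4.24 CPM with NEL, against 173 ± 7.33 CPM with DMSO (-0.76 ± 0.05, edgeR adjusted p = 4.82e-09), and EP300 fell by 0.35 on the log2 scale (SE 0.05, edgeR adjusted p = 1.24e-05). ELK3 and ELK4, ETS factors that bind with SRF, rose by 0.41 ± 0.05 and 0.28 ± 0.04 (edgeR adjusted p = 9.12e-06 and 3.75e-05). In KG1A 6 of 9 fell, 1 rose and 2 were not called (median -0.208), against 23.6% of all genes in each direction, with EP300 at -0.40 ± 0.04 (edgeR adjusted p = 3.17e-06) and CREB1, which is also among the zipper genes above, lower. ELK1 was the member that rose in KG1A (0.18 ± 0.06, edgeR adjusted p = 0.0316).

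MAP kinases and their activators, which phosphorylate JUN and FOS proteins or raise their transcription, moved both ways. Of 24 tested in U937, 10 rose, 8 fell and 6 were not called (median log2 fold change 0.064). MAP2K1, the kinase MEK1, rose by 0.76 ± 0.05 (edgeR adjusted p = 2.39e-08) and MAP3K2 by 0.59 ± 0.04 (edgeR adjusted p = 3.69e-08), and MAP2K3 and MAP3K11 fell by 0.65 and 0.74 on the log2 scale (edgeR adjusted p = 4.39e-07 and 1.57e-05). In KG1A 8 of 24 rose, 7 fell and 9 were not called (median 0.001). MAP3K8 rose there by 0.53 ± 0.06 and RPS6KA5 by 0.40 ± 0.05 (edgeR adjusted p = 3.09e-06 and 1.06e-05). MAP3K4 and MAPK14, the p38 alpha kinase, fell by 0.39 and 0.27 on the log2 scale (edgeR adjusted p = 4.92e-06 and 3.07e-05).

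Of 17 genes linked, in either direction, to the turnover of AP-1 proteins or of messenger RNAs, 4 rose, 10 fell and 3 were not called in U937 (median log2 fold change -0.218). ZFP36L1, which promotes decay of messages with AU-rich elements, rose to 41.1 ± 3.59 CPM with NEL, against 9.13 ± 1.38 CPM with DMSO (2.17 ± 0.10, edgeR adjusted p = 3.11e-10), and USP28 rose by 0.50 ± 0.05 (edgeR adjusted p = 4.49e-07). KHSRP, another decay factor of AU-rich messages, fell by 0.76 on the log2 scale and STUB1 by 0.67 (edgeR adjusted p = 1.18e-09 and 8.57e-09). In KG1A 3 rose, 6 fell and 8 were not called (median -0.041). SKP2 and TRIB2 rose by 0.64 ± 0.04 and 0.49 ± 0.09 (edgeR adjusted p = 5.24e-08 and 2.45e-04), and ZFP36L2 and DDB1 fell by 0.43 and 0.22 on the log2 scale (edgeR adjusted p = 1.91e-05 and 1.04e-04).

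Genes known as AP-1 targets in various cells were more often called higher than lower in both lines. In U937 14 of 25 tested rose, 3 fell and 8 were not called, against 34.6% higher and 34.7% lower over all genes tested, with a median log2 fold change of 0.473 against -0.004 over all genes. That median was the same with 1 gene at 0 counts in the DMSO group set to its bound against 3 counts over the group. The list holds 34 genes, of which 25 passed the filter. SPP1, MMP13 and MMP9, with 5, 0 and 57 counts over the DMSO group, passed only through the NEL group, where they are high. The filter thus adds to the risers, and the list was chosen with earlier results of these data known. VIM, the intermediate filament vimentin, rose to 553 ± 16.4 CPM with NEL, against 86.9 ± 2.39 CPM with DMSO (log2 fold change 2.67 ± 0.04, edgeR adjusted p = 5.11e-14). ITGAX, the CD11c integrin chain, rose to 67.9 ± 2.5 CPM with NEL, against 3.94 ± 0.385 CPM with DMSO (4.11 ± 0.08, edgeR adjusted p = 1.24e-13). MMP1, the interstitial collagenase whose promoter gave the classical AP-1 element, had 126 ± 8.69 CPM with NEL, against 6.36 ± 1.38 CPM with DMSO (4.31 ± 0.10, edgeR adjusted p = 4.92e-13). MMP1 was singled out with its value known. The members that fell were BCL2L11, TNF and TRIB1, at -0.43 ± 0.04, -1.31 ± 0.15 and -0.61 ± 0.11.

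In KG1A 12 of 19 such targets rose, 2 fell and 5 were not called, against 23.6% of all genes in each direction, with a median log2 fold change of 0.631. Only these 19 of the 34 listed genes passed the filter. CSF2, with 12 counts over the DMSO group and 66 over the NEL group, passed only through NEL and is among the risers. The same holds for DMTN, with 50 counts over the DMSO group and 150 over the NEL group. ITGAM, the CD11b chain, rose to 11.2 ± 0.944 CPM with NEL, against 2.23 ± 0.509 CPM with DMSO (2.32 ± 0.15, edgeR adjusted p = 2.53e-08). GJA1, a gap junction protein, rose to 12.8 ± 0.975 CPM with NEL, against 4.91 ± 0.822 CPM with DMSO (1.38 ± 0.12, edgeR adjusted p = 5.31e-07). PLAU and PLAUR, the urokinase and its receptor, rose in both lines, by 1.20 ± 0.11 and 0.63 ± 0.07 in KG1A and by 0.64 ± 0.04 and 1.02 ± 0.06 in U937, and were also chosen after their values were seen. MT2A and TRIB1 fell by 0.58 and 0.37 on the log2 scale. Many of these targets also answer to other factors, and whether an AP-1 protein acted on any was not measured.

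**Figure D5:**
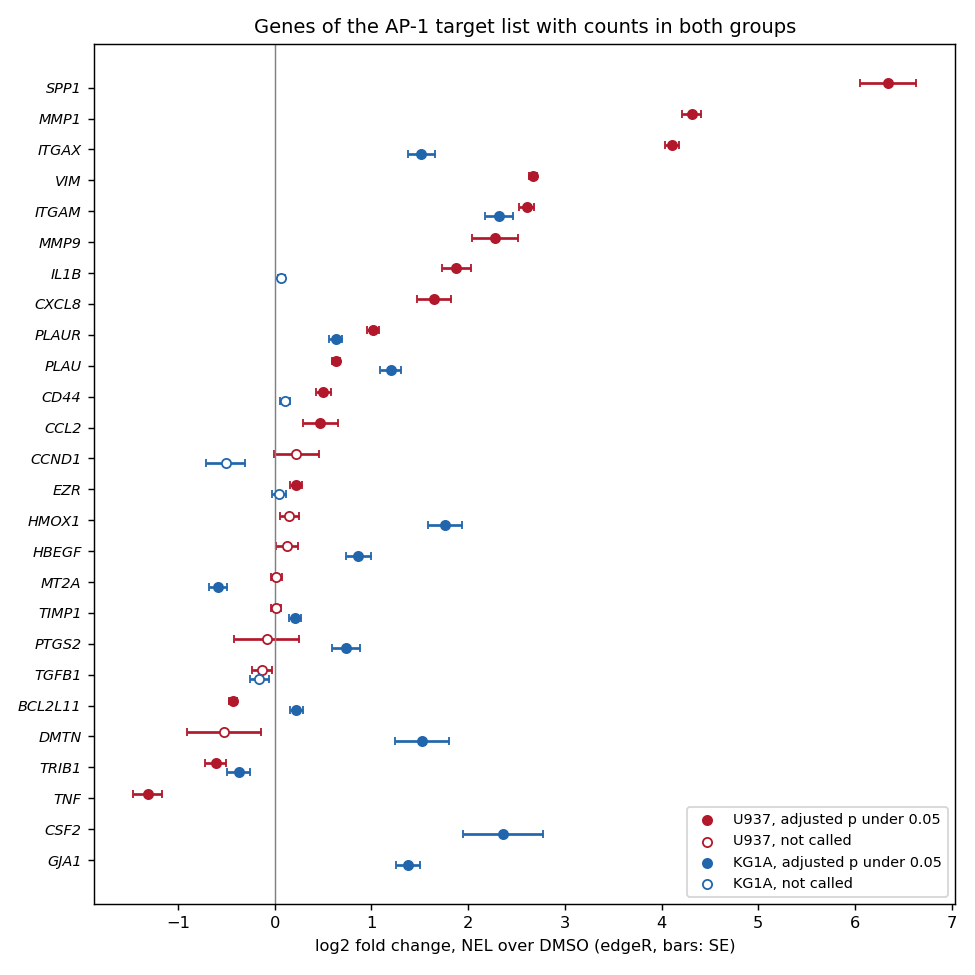
Points give the log2 fold change of NEL over DMSO for each gene of the AP-1 target list in U937 and KG1A that passed the filter and had counts in both groups, bars the SE, and filled points an edgeR adjusted p under 0.05. ITGAX stands at 4.11 in U937 and 1.52 in KG1A, and GJA1 has a point in KG1A alone.

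The genes whose pattern over the 16 libraries was most like that of each member were sought among 10924 other named genes by Pearson correlation of log2(CPM + 0.5). The correlations ran from 0.944 to 0.997 and rest on differences between the 4 groups, which all libraries of a group share. The most similar gene was DLX1 for JUN (0.997), with 82.2 and 119 CPM in U937 with NEL and with DMSO, and 14.2 and 5.48 CPM in KG1A with NEL and with DMSO. For FOSL2 it was BNIP3 (0.995), with 34.7 and 9.81 CPM in U937 with NEL and with DMSO, and 41.4 and 37.3 CPM in KG1A with NEL and with DMSO. BATF3 had SPHK1 (0.995), FOSL1 had CHERP (0.994), JUND had XBP1 (0.994), JUNB had MCMBP (0.992) and FOSB had CDKN1C (0.990). FOS, BATF and ATF3 had BMP8B (0.958), SAFB2 (0.951) and GPR155 (0.944).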

How the data were processed

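Per the labels' protocols, stranded libraries of polyadenylated RNA were made from RNA of 2 leukaemia lines. The build was hg19 (GRCh37) and the tools HTSeq 0.11.2, TopHat2 and bcl2fastq 2.18.0.12, per the submitters' processing notes, and no source used here gives the annotation or how strand was treated. The authors deposited raw read counts per gene, with exon lengths, and RPKM values, each the count divided by exon length and library total (to within a relative deviation of 1.86e-07).

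Counts of all genes were tested with edgeR 4.0.16 (quasi-likelihood, TMM factors, R 4.3.3) after its filter at a minimum count of 10 and total of 15, with Benjamini-Hochberg adjustment. NEL was set against DMSO over the 8 libraries of a line, the lines against each other over 8 DMSO libraries, and the difference of NEL effects over all 16. The SE is the log2 fold change divided by the root of the F statistic. Alternatives used DESeq2 1.42.0, limma 3.58.1, other factors and filters, log2(RPKM + 0.5) or log2(RPKM + 0.1), each library left out, library sets and the block. The fits were tested on simulated data, drawn independently for each library and so without the sets by parity. Figures used matplotlib 3.10.9.

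Members, gene lists and tests were chosen with earlier results of these data known. All 10 members are named, and in each list the 2 called genes of smallest p each way. Symbols came from a table of gene names, which gave a name to 24496 of 34618 IDs. Labels number libraries 1 to 4. Deviations from group means of same-numbered NEL and DMSO libraries correlated at 0.289 to 0.369 in KG1A and 0.316 to 0.364 in U937. Libraries of the same parity but another number did so about as much. The data thus show sets by parity and no pairing by number, and no label states a pairing. MMP12 was not analysed here, and 1 marker is not reported here.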

Additional observations from a re-analysis of the deposited data

Results flagged for a closer look

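The NEL effect differed between the lines, by the interaction term of edgeR over all 16 libraries, in 8 members, and in 47.4% of all 16117 genes tested. The difference of log2 fold changes, U937 minus KG1A, was 1.90 for FOSL2, -2.23 for FOSL1, -0.74 for FOS (not called in the odd-numbered libraries alone, edgeR adjusted p = 0.179), -2.25 for JUN, -0.82 for JUNB, -0.42 for JUND, -0.84 for BATF and -1.65 for BATF3. JUN, JUNB, BATF and BATF3 were called in both lines with opposite signs, lower in U937 and higher in KG1A.

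In KG1A with DMSO, FOSL1 in library 1 (17.97 CPM) lay far above the other 3 libraries of its group, and JUNB in library 2 (28.7 CPM) far below its own. These 2 are among 40 gene and group combinations checked, and chance flags about 1 in 20. The FOSL1 change in KG1A stayed uncalled with each library left out in turn, and the JUNB change stayed called.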

How the results depend on the processing

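Counts of members called moved by less than 1.5 times under every alternative run, in each of the 4 comparisons. With 1 library left out they ran from 5 to 6 higher in KG1A, 6 to 7 lower in U937 and 7 to 8 lower for the difference of the NEL effects. They held at 0 lower in KG1A, 2 higher in U937, 1 higher for the difference, and 6 higher and 3 lower between the lines. With the replicate block, members called in KG1A numbered 6 higher and 0 lower, FOSL2 being added, and in U937, for the difference and between the lines the counts equalled those without the block. With libraries 1 and 2, and 3 and 4, summed, they were 6 higher in KG1A and 2 higher and 7 lower in U937.

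Of the log2 fold changes under an alternative, 880 kept their direction and their side of the threshold, 15 were no longer called, 8 became called and 25 changed sign. Those 25 belong to 3 values near 0 that were never called, and the cause was not tested. JUND in KG1A took 0.0565 on log2(RPKM + 0.5), 0.0567 on log2(RPKM + 0.1), 0.0461 in the odd-numbered libraries and 0.002 in one model of all libraries, and ran from -0.0722 to 0.0452 with 1 library left out. FOSB in U937 took 0.0493 with upper quartile factors, 0.0508 on log2(RPKM + 0.5), 0.0713 on log2(RPKM + 0.1) and 0.0164 in the even-numbered libraries, and ran from -0.057 to 0.027. BATF between the lines took -0.0098 with DESeq2 size factors, -0.0072 with the stricter filter, -0.0099 with DESeq2, -0.0048 with limma-voom and -0.0568 in the odd-numbered libraries, and ran from -0.0517 to 0.086.

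Low genes shrink by construction on the RPKM scale with its added 0.5: JUN in KG1A was 1.06 there and 1.87 in the count test. FOS and FOSL2 were called in KG1A there (0.29 and 0.14, limma adjusted p = 0.0456 and 0.0119). FOSB in KG1A, below the filter, gave 0.65 without a filter and was not called (edgeR adjusted p = 0.246). Depth limits the KG1A values of JUN, BATF3 and FOSB, which rest on 3 to 48 counts per library.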
